A study of Mus musculus with 4 samples.

Results

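The ADAM and ADAMTS genes encode zinc metalloproteases and their relatives, and the members were chosen by name from the mouse RefSeq gene table: protein-coding symbols that start with Adam, Adamts or Adamtsl and a digit. There were 58 of them among 21631 protein-coding genes on chromosomes 1 to 19 and X. The data are chromatin immunoprecipitation with sequencing (ChIP-seq) from cardiac fibroblasts of neonatal mice, in a study of the genomic elements bound by the transcription factor TEAD1. Cells with a negative control for overexpression (OE-NC) and cells overexpressing TEAD1 (OE-TEAD1) were each represented by 1 immunoprecipitated library and 1 input library, input being sonicated chromatin kept aside without antibody. All 4 libraries came from one cell type, and the sources used here give no strain, expression vector, antibody or exact age. What was analysed were 2 peak lists, each called against input. The labels tie neither list to OE-NC or to OE-TEAD1, so they are named list 1 and list 2, nothing is said of the effect of overexpression, and with no replicates no difference was tested. List 1 held 21285 peaks and list 2 held 21218. As a check of the cell type, which peaks can bear on only indirectly, since they do not measure expression, 7 of 8 fibroblast markers had a summit in list 1 and 6 of 8 in list 2. None of the 3 leukocyte markers had one in either list, whereas 3 of 4 cardiomyocyte and 2 of 3 endothelial markers had one in list 1 and 1 of 4 and 1 of 3 in list 2. Of all protein-coding genes 33.7% had one in list 1 and 33.8% in list 2. The markers were few and not matched for gene length, so these counts cannot by themselves identify the cell type.

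ADAMs are membrane-anchored proteins with a metalloprotease and a disintegrin domain. The catalytically active ones act largely as sheddases, which cut the extracellular part off growth factors, cytokines, adhesion molecules and Notch receptors. ADAMTS proteases are secreted, carry thrombospondin type 1 repeats and cut matrix components such as proteoglycans and procollagens. ADAMTS-like proteins share the repeats without the protease and bind microfibrils of the matrix. In the heart, fibroblasts make and turn over much of this matrix, and TEAD1 is one of the factors through which the Hippo pathway coactivators YAP and TAZ reach DNA.

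A member was counted when the summit of a peak, its point of highest signal, lay in the annotated gene span or within 10 kb of either end. This held for 20 of 58 members in list 1 (34.5%), against 33.7% of all protein-coding genes. List 2 also had 20 of 58, against 33.8% of all genes. Both shares lay near that background. The members are long genes, with a median span of 36.8 kb against 17.3 kb for other genes, and long spans collect more summits. Other genes of like span were taken from the same span-length bins (10 bins of equal gene number) and weighted to the members. They had a summit in 42.5% of cases in list 1 and 42.8% in list 2. Both lay above the share of the members, which did not hold in every setting run (given below). Among the 9 members of the second shortest bin none had a summit in either list, against 18.7% and 18.8% of other genes there. All 9 were reproductive ADAMs, and some are close copies for which the lack of a peak is uncertain (described below). In the second longest bin it was 5 of 7 members in list 1 and 6 of 7 in list 2, against 54.7% and 55.1%. Between the members the summits were spread unevenly, and how evenly other genes share theirs was not computed. The 6 members with most summits held 37 of 68 in list 1 and 48 of 79 in list 2, while the median member had 0 in each list.

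**Figure D1:**
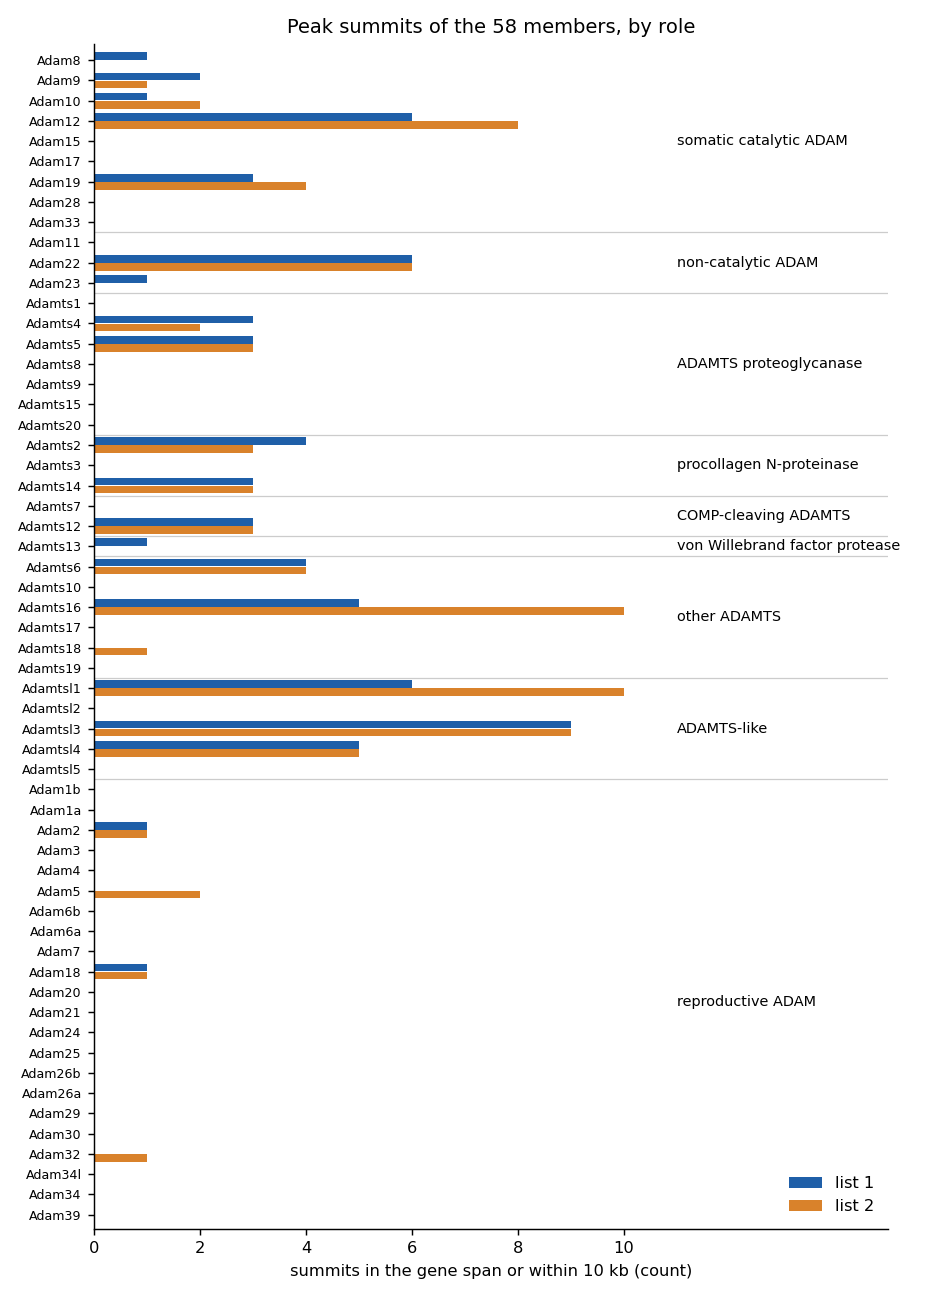
Number of peak summits in the gene span or within 10 kb of it (horizontal axis, count) for each of the 58 members (vertical axis), grouped by role, with blue bars for list 1 and orange bars for list 2. Adamtsl1, Adamtsl3, Adamtsl4, Adamts16, Adam12 and Adam22 carry between 5 and 10 summits in each list, and most reproductive ADAM genes carry none.

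Of the members 17 had a summit in both lists (29.3%, against 28.0% of all genes and 36.8% of other genes of like span). Another 6 had one in exactly 1 list (10.3%, against 11.5% of all genes), so that 23 had one in either list (39.5% of all genes did) and 35 had none. Adam8, Adam23 and Adamts13 were found in list 1 alone, and Adam5, Adam32 and Adamts18 in list 2 alone. All 6 rested on weak peaks, from 4.88-fold to 5.88-fold over input by the strongest peak, with at most 21 fragments at the summit. At least 3 summits were held by 13 members in list 1 (22.4%, against 8.16% of all genes and 14.9% of other genes of like span). In list 2 it was 12 members (20.7%, against 7.81% of all genes and 14.3% of like span). A summit of at least 10-fold over input was found for 11 members in each list (19%), against 11.5% and 13.4% of all genes and 17.1% and 19.8% of other genes of like span.

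**Figure D2:**
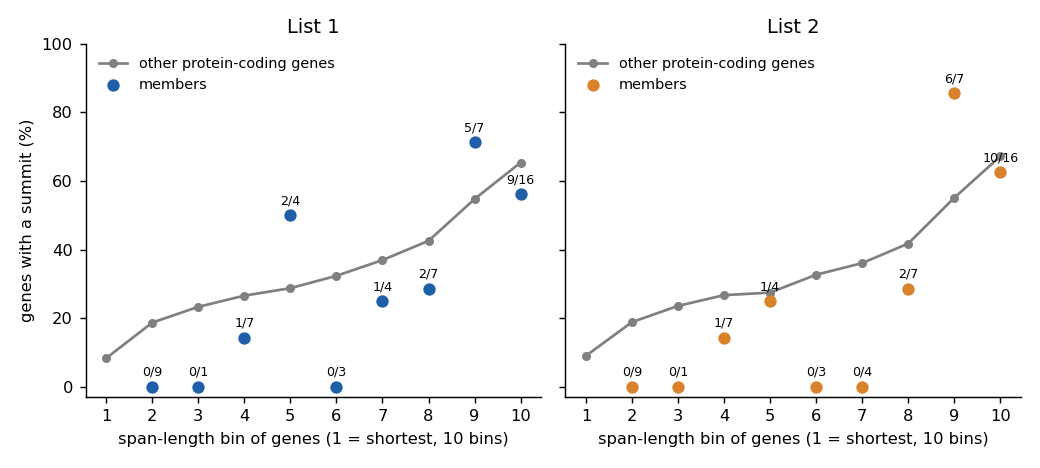
Percentage of genes with a summit (vertical axis) by span-length bin of all protein-coding genes (horizontal axis, 10 bins of equal gene number, 1 the shortest), for list 1 on the left and list 2 on the right; grey lines are other genes, coloured points the members, with the number of members with a summit over the number in that bin. The longest bin holds 16 members, of which 9 in list 1 and 10 in list 2 have a summit, against 65.4% and 67.2% of other genes.

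The fold given for each peak is the authors', and its values match the ChIP fragments at the summit plus 1 over a background plus 1. It is thus lower than the plain ratio, most so where the background is low. At many member peaks the background equals the lowest of its list, 1.72 fragments in list 1 and 1.87 in list 2. At those peaks it is the same for distant sites and is not a value particular to the site. The number of ChIP fragments behind it was solved from the fold and its p, and the bracketed ranges are exact Poisson 95% intervals of that number, which cover counting error only. The strongest peaks of these genes reached 33.8-fold in list 1 and 40.3-fold in list 2. Their median fold was 7.22 in list 1 (all peaks 6.24) and 6.70 in list 2 (all peaks 6.83). Most lay inside the genes: 56 of 68 summits in list 1 and 66 of 78 distinct summits in list 2. The spans also make up most of the summed windows, so these shares do not by themselves show a preference for gene interiors. Few were near a promoter, but the 5 kb on each side of a start are a small part of a long window. No such share was computed for other genes. RefSeq start sites were at hand for 32 members, and of the summits of those members 4 of 37 in list 1 and 3 of 36 in list 2 lay within 5 kb of one. The only summits within 1 kb of a listed start were those of Adamtsl4, 1 in each list.

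Adamtsl4, whose product binds fibrillin-1 microfibrils, was also the only member whose listed promoter window was reached by a peak. The 240 bases before its start, outside the annotated span (GRCm38.p6, minus strand, chr3:95687928-95688167, from RefSeq), are shown because the summits of 23.1-fold and 21.6-fold lie just upstream of them, 0.45 kb and 0.40 kb from the start. Capitals mark the 31 bases that lie inside the list 1 peak, of which the list 2 peak covers the first 13.
Adamtsl4: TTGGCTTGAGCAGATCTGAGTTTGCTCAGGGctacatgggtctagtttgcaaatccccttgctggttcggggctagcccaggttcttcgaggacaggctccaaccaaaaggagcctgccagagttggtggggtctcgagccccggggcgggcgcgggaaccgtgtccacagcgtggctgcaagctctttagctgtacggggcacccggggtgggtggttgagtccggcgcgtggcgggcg
Neither the TEAD core GGAATG nor the AP-1 site TGANTCA was found in these letters on either strand. Of all 250-base windows before listed starts of protein-coding genes, 11.6% hold the first and 6.17% the second. Among 34 windows of the members 2 held the TEAD core and 4 the AP-1 site.

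Among the catalytic ADAMs of somatic tissues, 5 of 9 had a summit in list 1 and 4 of 9 in list 2 (44.3% and 44.2% of other genes of like span). Adam12, a sheddase of muscle and mesenchyme that cuts heparin-binding EGF and IGF-binding proteins, had the most. Its span on chromosome 7 (133883199 to 134225097) held 6 summits in list 1 and 8 in list 2, and the strongest, at 134007755 to 134008570, lay 125 kb from an end. That site had 75 fragments and 27.9-fold (22.0 to 34.9) in list 1, and 69 fragments and 20.4-fold (15.9 to 25.7) in list 2. A second Adam12 site, at 134099754 to 134100326, was 14.3-fold in list 1 and 10.6-fold in list 2. The intervals of the lists overlapped at both sites.

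Adam9, a broadly expressed sheddase, had 1 strong site in both lists, on chromosome 8 at 24975016 to 24975806 inside the gene, with 61 fragments and 12.04-fold (9.26 to 15.4) in list 1 and 63 fragments and 16.5-fold (12.7 to 21.0) in list 2. Fragment numbers were close, and the local backgrounds were 4.15 and 2.88 fragments. Adam19, also called meltrin beta and needed for cardiac valves and septa in the mouse, had its strongest peak at different places. In list 1 it was the site on chromosome 11 at 46080139 to 46080873, with 37 fragments and 12.4-fold (8.80 to 16.9). In list 2 it was the site at 46072603 to 46073868, with 44 fragments and 14.9-fold (10.9 to 19.9). Each list also held the other site, at 6.09-fold in list 1 and 7.79-fold in list 2. The summit above the upper end of Adam19 lay inside the span of Nipal4.

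The principal sheddases had summit counts near those of genes of like span. Adam10 had 1 summit in list 1 and 2 in list 2, where other genes of its span bin had a median of 1 in each list. For Adam17 the count was 0 in each list, as was the median of other genes of its span bin. Adam10, which cuts Notch and cadherins, had an intragenic site on chromosome 9 at 70731084 to 70731495. It had 22 fragments and 8.45-fold (5.43 to 12.6) in list 1 and 16 fragments and 5.93-fold (3.54 to 9.41) in list 2. That was above the median of all peaks in list 1 (6.24) and below it in list 2 (6.83). A further summit of Adam10 was 4.54-fold in list 2 alone. Adam17, which releases TNF and ligands of the EGF receptor, had no summit in its window, and the nearest lay 51.2 kb away in list 1 and 51.1 kb in list 2. Adam8, best known from leukocytes, had 1 summit of 5.88-fold in list 1, with Tubgcp2 also within 10 kb. Adam15, Adam28 and Adam33 had none in either list.

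Adam11, Adam22 and Adam23 have lost protease activity and act at the synapse as receptors of LGI proteins. Adam22 carried 6 summits in each list, and all 6 sites were shared. The strongest of list 1, on chromosome 5 at 8293190 to 8293651, had 29 fragments and 11.02-fold (7.50 to 15.7), and 35 fragments and 11.9-fold (8.38 to 16.4) in list 2. The strongest of list 2, at 8296646 to 8297207, had 43 fragments and 15.4-fold (11.2 to 20.6), and 29 fragments and 8.35-fold (5.68 to 11.9) in list 1. At both sites the intervals of the lists overlapped. Adam23 had 1 weak summit in list 1 (5.78-fold), and Adam11 none.

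The ADAMTS proteoglycanases cleave versican and aggrecan, and 2 of 7 had a summit in each list (28.6%, with 33.7% and 33.8% of all genes and 41.9% and 42.2% of other genes of like span). Adamts5, the main aggrecanase of the mouse, had 3 summits in each list, at the same 3 sites inside the gene. The strongest in list 1 was on chromosome 16 at 85898549 to 85899127, 2.45 kb from the upper end of the span, with 32 fragments and 12.1-fold (8.40 to 16.96). That site had 25 fragments and 9.07-fold (5.99 to 13.2) in list 2. The strongest in list 2 was at 85887345 to 85888101, with 29 fragments and 10.5-fold (7.13 to 14.9), against 7.34-fold in list 1. Adamts4 had summits only outside its span, 3 in list 1 and 2 in list 2. The site 0.78 kb above its upper end, on chromosome 1 at 171262736 to 171263286, had B4galt3 within 10 kb. It had 11 fragments and 4.41-fold (2.38 to 7.59) in list 1 and 35 fragments and 7.74-fold (5.45 to 10.7) in list 2, and the intervals overlapped. Adamts1, next to Adamts5 on chromosome 16, had no summit in its window. The nearest lay 57.7 kb away in list 1 and 24.1 kb in list 2. Adamts8, Adamts9, Adamts15 and Adamts20 had none either.

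Procollagen N-proteinases trim the amino-terminal propeptide of fibrillar collagens. Adamts14 and Adamts2 had summits in both lists and Adamts3 in neither, the nearest to it being 133 kb away in each. The strongest Adamts14 site lay upstream of the gene, 4.81 kb before the listed start, on chromosome 10 at 61277984 to 61278540. It had 41 fragments and 13.5-fold (9.79 to 18.2) in list 1 and 45 fragments and 13.7-fold (10.1 to 18.3) in list 2, a close match between lists. The other 2 Adamts14 sites, also shared, were between 3.13-fold and 4.22-fold. Adamts2, the first of these enzymes to be tied to a connective tissue disease, had 4 summits in list 1 and 3 in list 2, all weak. Its strongest were 5.63-fold (3.81 to 8.06, 28 fragments) in list 1, at 50664400 to 50664868 of chromosome 11, and 6.32-fold (3.88 to 9.80, 18 fragments) in list 2, at 50642641 to 50642943. Those 2 sites did not coincide, and 2 Adamts2 sites were shared.

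The other ADAMTS genes held the highest list 1 fold among the peaks counted for members. Adamts6, a protease of fibrillin microfibrils with a role in heart development, had 2 strong sites toward the upper end of its span on chromosome 13, 36.3 kb and 28.4 kb from that end. At 104460094 to 104461026 there were 91 fragments and 33.8-fold (27.3 to 41.4) in list 1 and 113 fragments and 29.7-fold (24.5 to 35.6) in list 2. At 104467499 to 104468613 there were 87 fragments and 28.4-fold in list 1 and 94 fragments and 20.4-fold in list 2. By −log10 q the first ranked 448th of all peaks in list 1 and 642nd in list 2. Adamts16, a paralogue pair with Adamts18, had 5 summits in list 1 and 10 in list 2. Its strongest site, on chromosome 13 at 70788936 to 70789570, had 37 fragments and 13.95-fold (9.93 to 19.1) in list 1 and 42 fragments and 15-fold (10.9 to 20.2) in list 2. Of the 10 list 2 summits, 4 were shared with list 1. Adamts18 had a single list 2 summit (4.88-fold), and Adamts10, Adamts17 and Adamts19 had none. Adamts12, which with Adamts7 cleaves cartilage oligomeric matrix protein, had 3 shared sites, of 3.89-fold to 7.26-fold in list 1 and 4.18-fold to 6.79-fold in list 2. Adamts7 had none. Adamts13, the von Willebrand factor protease, had 1 summit of 5.51-fold in list 1 alone.

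**Figure D3:**
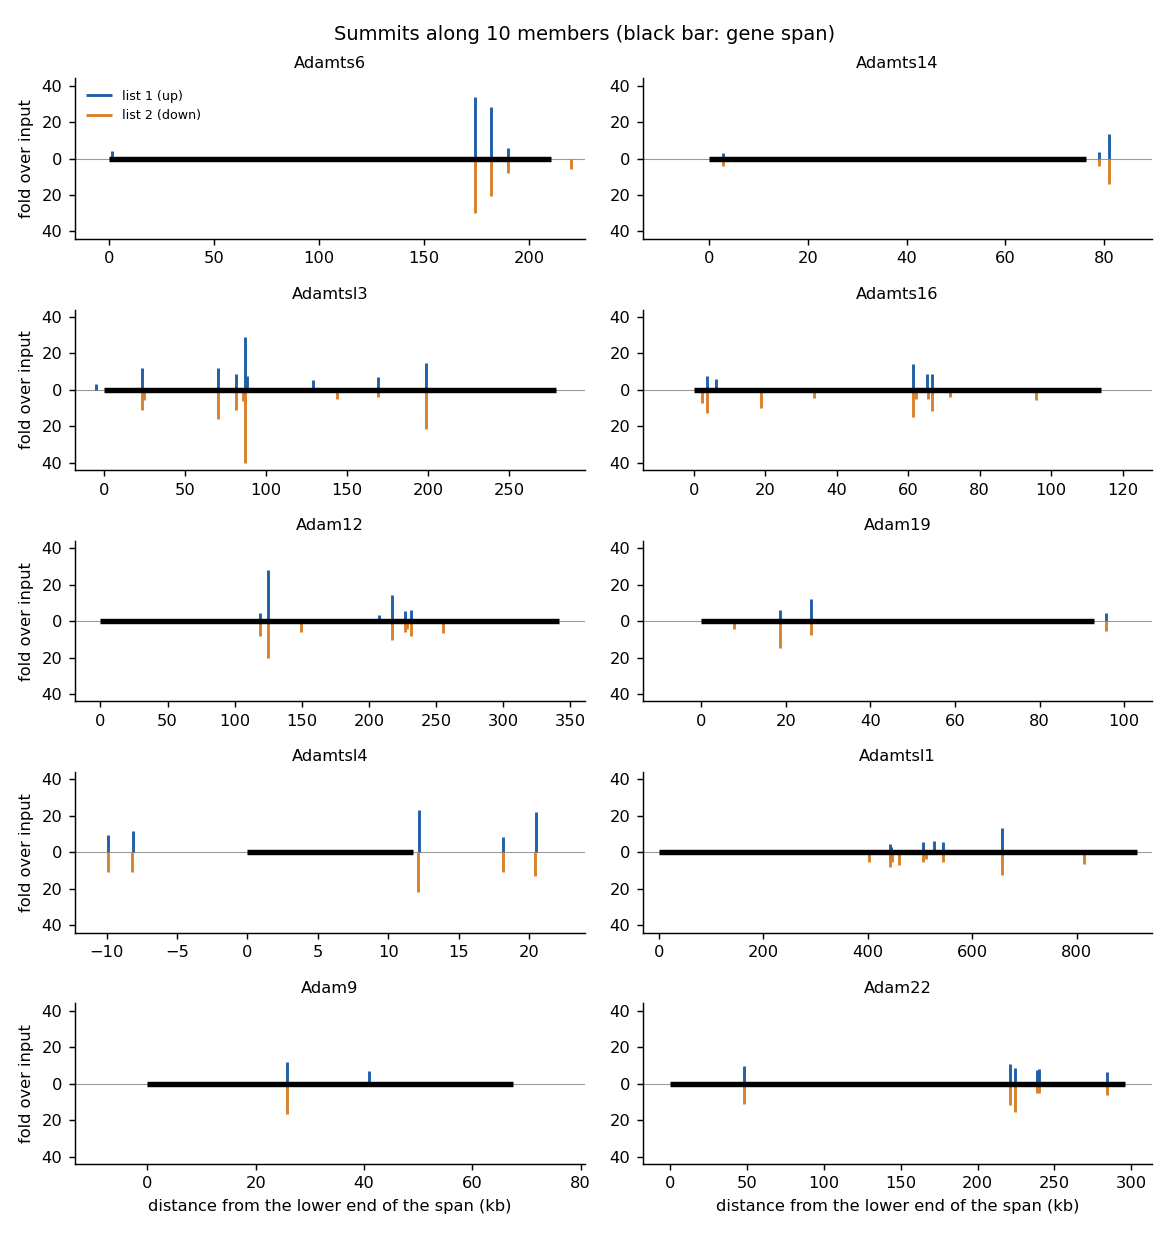
Summits along the 10 members with the strongest peaks: horizontal axis, distance in kb from the lower end of the gene span (black bar); vertical axis, fold over input, list 1 upward in blue and list 2 downward in orange. The sites above 20-fold in both lists sit inside Adamts6, Adamtsl3 and Adam12 and outside the upper end of Adamtsl4. The strongest Adamts14 site, which is lower, also lies outside the span. Adam19 and Adam22 have their strongest peaks at different places in the lists.

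ADAMTS-like genes carried the most summits for their number, 20 in list 1 and 24 in list 2 over 5 genes. These counts were not scaled to span length. Only 3 of 5 had any summit in each list. Of all genes 33.7% and 33.8% had one, and of other genes of like span 44.2% and 44.8%. Adamtsl3, also called punctin-2, had 9 summits in each list. Its strongest site, on chromosome 7 at 82422300 to 82423095, had 78 fragments and 29.0-fold (23.0 to 36.1) in list 1. In list 2 the peak at 82422361 to 82424066 had 121 fragments and 40.3-fold (33.5 to 48.1), the highest fold of any member, and the intervals overlap. By −log10 q it ranked 414th of all list 2 peaks, the best rank of a member there. The list 2 peak spans a region that list 1 divides into 2 peaks. A further Adamtsl3 site at 82533924 to 82534720 was 14.7-fold and 21.6-fold. Adamtsl1, also called punctin, has the longest span (915 kb) and held 6 summits in list 1 and 10 in list 2, all inside the gene. Its strongest, on chromosome 4 at 86171404 to 86171968, had 47 fragments and 13.4-fold (9.89 to 17.7) in list 1 and 35 fragments and 12.5-fold (8.82 to 17.3) in list 2.

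Adamtsl4 differed from those in being short, 11.7 kb, with none of its 5 summits in either list inside the span. The 5 sites were the same in both lists. The promoter-proximal site, whose edge is printed above, lay on chromosome 3 at 95688137 to 95688745, with 82 fragments and 23.1-fold (18.4 to 28.6) in list 1 and 61 fragments and 21.6-fold (16.6 to 27.7) in list 2. A site 8.74 kb above the upper end was 22.0-fold in list 1 and 13.1-fold in list 2. The 2 sites below the lower end, at 9.49-fold and 11.6-fold in list 1, had Mcl1, encoding an anti-apoptotic BCL2 relative, within 10 kb as well. Adamtsl2 and Adamtsl5 had no summit in either list.

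**Figure D4:**
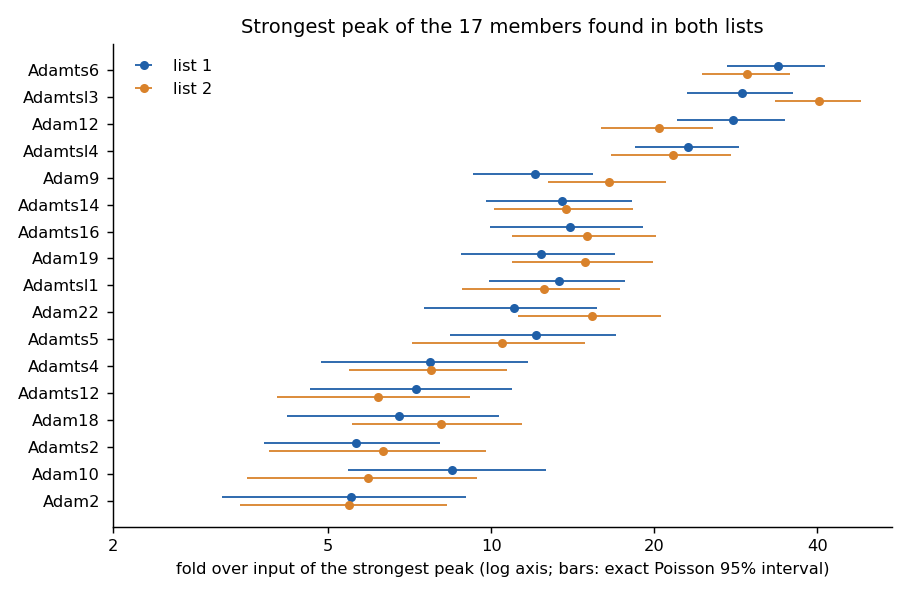
Fold over input (horizontal log axis) of the strongest peak of each of the 17 members with a summit in both lists (vertical axis), with exact Poisson 95% intervals as bars, list 1 in blue and list 2 in orange. The strongest peak is the one with the highest −log10 q, which for Adamts4 and Adamts12 in list 2 did not have the highest fold. Adamts6, Adamtsl3, Adam12 and Adamtsl4 lie above 20-fold in both lists, and for the 11 members with the same strongest site in both lists the bars overlap; for Adam19, Adam22, Adamts2, Adamts4, Adamts5 and Adamts12 the bars belong to different sites.

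The reproductive ADAMs, most of which are made in testis or epididymis and serve sperm function, rarely had a summit. In list 1 it was 2 of 22 and in list 2 it was 4 of 22, against 31.5% of other genes of like span in each. Adam18 (6.75-fold and 8.07-fold) and Adam2 (5.51-fold and 5.47-fold) had the same site in both lists. Adam5 and Adam32 were counted in list 2 by a summit between them of 5.18-fold, which makes 1 summit counted for both, and Adam5 had another of 5.58-fold. Adam5, Adam18 and Adam32 lie beside Adam9 in a cluster on chromosome 8. The other 18 had none in either list: Adam1a, Adam1b, Adam3, Adam4, Adam6a, Adam6b, Adam7, Adam20, Adam21, Adam24, Adam25, Adam26a, Adam26b, Adam29, Adam30, Adam34, Adam34l and Adam39. Several of these are close copies of each other (Adam1a and Adam1b, Adam6a and Adam6b, Adam26a and Adam26b), and how reads that fit several places were treated is not stated, so the lack of a peak there is uncertain. A second group on chromosome 8, Adam26a, Adam26b, Adam34 and Adam34l, lay between 390 and 567 kb from the nearest summit in either list. Without the reproductive ADAMs, 18 of the remaining 36 members had a summit in list 1 (other genes of like span 49.2%) and 16 of 36 in list 2 (44.4%, like span 49.7%).

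At the limit of the window, the members just inside were Adamtsl4, with summits 9.90 kb and 9.91 kb from its lower end, and Adamts6, with a list 2 summit 9.65 kb above its upper end. Both had other summits closer by. Just outside were Adam11, 11.4 kb from a summit in both lists (5.88-fold and 8.37-fold), and Adamts20, 11.6 kb from a list 2 summit of 5.93-fold.

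The lists were then compared at the sites of these genes. A peak was shared when it overlapped a peak of the other list by at least 1 bp. That held for 55 of 68 list 1 peaks (80.9%, all peaks 70.9%) and 54 of 78 list 2 peaks (69.2%, all peaks 71.4%). Of the 17 members in both lists, 11 had the same strongest site in each, taking the peak with the highest −log10 q as the strongest. Ranked by fold instead, Adamts12 would also have the same site in each, at 7.26-fold in list 1 and 6.79-fold in list 2. At 54 pairs of peaks that were each other's best overlap, log2 of the list 2 fold less that of list 1 had a median of 0.14 and an SD of 0.48, beside a median of 0.15 over all 15015 pairs. List 2 had the higher fold at 31 member pairs, list 1 at 23. The intervals were apart at 2 of the 54 pairs (3.70%), against 8.79% of all pairs. At Adam19 the site of 25 fragments over a background of 3.27 in list 1 (6.09-fold, 4.02 to 8.87) had 44 fragments over 2.02 in list 2 (14.9-fold, 10.9 to 19.9). At the Adamtsl4 site 8.74 kb above the gene, the fragments were 62 and 60, and the folds 22.0 (16.98 to 28.2) and 13.1 (10.1 to 16.8) came with backgrounds of 1.86 and 3.65 fragments. These intervals leave out the error of the input, and no spread between cultures is known.

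**Figure D5:**
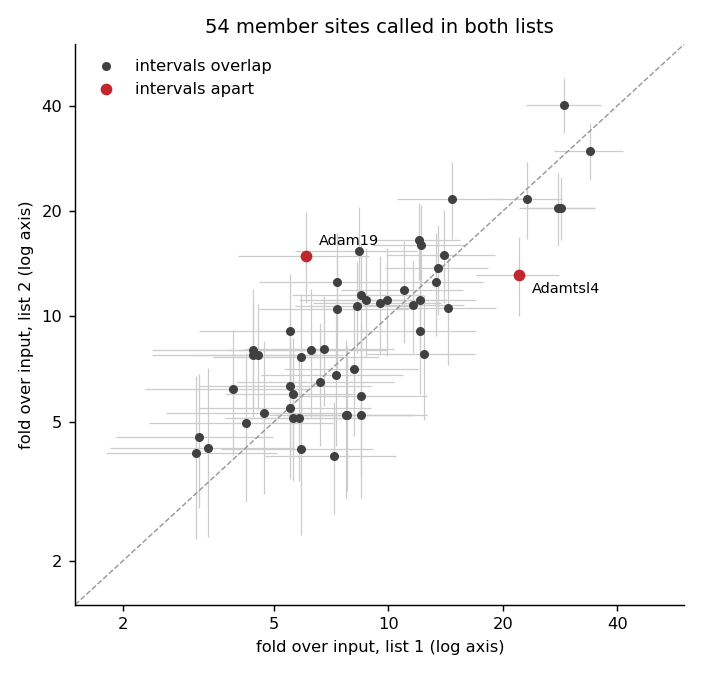
Fold over input in list 1 (horizontal log axis) against list 2 (vertical log axis) for the 54 pairs of member peaks, with exact Poisson 95% intervals in grey and equality as a dashed line. The intervals are apart at the 2 red points (8.79% of all 15015 pairs of peaks), Adam19 above the line and Adamtsl4 below it.

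Genes that work with these proteases were listed by role as well, 48 in all. Of them 24 had a summit in list 1 and 26 in list 2 (54.2%), against the same 33.7% and 33.8% of all genes. Unlike the members, they were not set against genes of like span, and long spans collect more summits. They were also chosen with earlier results of these data known, so the difference from all genes was not tested. Among inhibitors, Timp3, the main tissue inhibitor of ADAM and ADAMTS proteases, was 26.1-fold and 23.2-fold over input by its strongest peak. Timp2 reached 23.9-fold and 29.7-fold, and Timp1 6.24-fold and 4.88-fold. Timp4 and Reck had no summit. Of 6 tetraspanins that escort Adam10, 3 had a summit in list 1 and 4 in list 2, Tspan5 among them at 12.4-fold and 11.2-fold. Of the Adam17 cofactors, the rhomboid-like genes Rhbdf1 and Rhbdf2 had none, like Adam17, and Frmd8 had weak peaks of 3.67-fold and 5.93-fold at different sites. Of 4 proprotein convertases, which remove the inhibitory prodomain, 3 had a summit in list 1 and 2 in list 2, with 8.08-fold at Pcsk5 in list 1 the highest. Pofut2, which puts fucose on thrombospondin repeats, reached 13.6-fold and 16.5-fold, and its partner enzyme B3glct had no summit. Thsd4, an ADAMTS-like gene outside the naming rule, carried 16 summits in list 1 and 12 in list 2. Of 25 substrates and binding partners 12 had a summit in list 1 and 14 in list 2. Cx3cl1 had the highest folds among them, 68.3-fold and 62.2-fold. Fbn1, encoding the fibrillin-1 that ADAMTS-like proteins and Adamts6 act on, had 9 and 10 summits, up to 37.4-fold and 49.5-fold. The proteoglycan gene Vcan had 1 site of 10.6-fold and 12.3-fold, and Hbegf, a growth factor shed by Adam12 and Adam17, reached 14.2-fold and 20.8-fold. The LGI ligands of Adam22 and Adam23, Lgi1 to Lgi4, had no summit.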

How the data were processed

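Trimmomatic 0.33, Bowtie 1.1.2 and MACS2 are the tools named in the submitters' processing notes, without their settings.  The deposited fold is a ratio whose values match (fragments + 1)/(background + 1), and the deposited −log10 p and −log10 q belong to single peaks. The notes name mm39, but each list has peaks past the ends of all 4 mm39 chromosomes looked at, with lengths taken from general knowledge and not from the files. Summits within 1 kb of a gene end of the GRCm38.p6 RefSeq table numbered 1129 and 1072, against at most 931 and 972 when shifted by 20 to 100 kb, so coordinates were read as GRCm38, counted from 1.

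Fragment numbers were solved from fold and p and came out whole, within 0.02, for all but 2 peaks per list. The lowest was 8. Library totals are not in the lists. Gene spans come without exons, so exon or intron positions were not analysed here. Like-span percentages use 10 span bins. Members were named in full for the 12 with the highest smaller −log10 q over both lists, which include Adam12, Adamts4 and Adamts5 (named in any case), and for Adam10, Adam17, Adamts1 and Adamts2. Members, roles and partner genes were chosen with earlier results of these data known, so no tests were made. Window and overlap code was tested on simulated data. Python 3.11.15, pandas 2.3.3 and SciPy 1.17.1 were used. The summits below the lower end of Adamts4 are counted but not described here.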

Additional observations from a re-analysis of the deposited data

How the results depend on the processing

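The counts of members depended on the window and the peak threshold. Their share relative to other genes of like span was 0.812 in list 1 and 0.805 in list 2. Over the settings run it ranged from 0.642 to 1.11, so the members were not below like-span genes in every setting. In list 1 it was 0.642 with summits within 10 kb of an end only. It was 1.04 with the span and 1 kb, and 1.11 with the 5000 strongest peaks. The highest ratio in list 2 was 1.002. Summits within 50 kb of the span gave 31 of 58 members in list 2, beside 59.0% of all genes. With summits within 10 kb of an end only, 11, 11 and 9 members were counted in list 1, list 2 and both lists, beside 27.1%, 26.6% and 21.0% of all genes. With the 5000 strongest peaks per list the counts were 11, 10 and 10, beside 11.5%, 11.5% and 9.48% of all genes, and with a fold of at least 10 they were 11, 11 and 11, beside 11.5%, 13.4% and 9.81%. Member peaks were shared in 74.7% of cases over both lists, and in 61.6% when at least 50% of each peak had to overlap, as when summits had to lie within 100 bp. Fewer peaks enter the stricter settings by construction. With 1 library per group, no paired analysis was possible because no group has a second library. Low fragment numbers limit the weak sites: an 8-fragment summit of Adamtsl3 in list 1 was 3.30-fold with an interval of 1.64 to 6.16.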

Other observations

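Several members without a summit in their window had a strong site nearby. Adamts17, a secreted protease of the fibrillin-linked group, had a peak 26.7 kb before its listed start, with a fold of 39.7 in list 1, above the highest counted for any member there (33.8), and of 32.7 in list 2, where Adamtsl3 reached 40.3. Adamts7 had a peak 35.5 kb from its span, 22.0-fold in list 1 and 24.8-fold in list 2. Around Adam15 the nearest summits differed, at 69.7 kb and 21.0-fold in list 1 and at 31.4 kb and 10.2-fold in list 2. These 3 genes were chosen after their values were seen, and the peaks were not assigned to any gene.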
